A study of Mus musculus with 21 samples.

Results

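Nuclear transport receptors and nucleoporins were examined in the cerebral cortex of mice that express human TDP-43 from a transgene. A gene counted as a member when its symbol began with Kpna, Kpnb, Ipo, Xpo, Tnpo, Nup or Ranbp followed by digits, or was Ran, Rangap1, Rcc1, Cse1l, Tpr, Nutf2 or Nxf1. Of 12393 genes with a probe set that named 1 symbol, 47 were members, covered by 92 probe sets. Of several probe sets for a gene, the one with the highest mean across all arrays stood for it. No value of the comparisons entered this choice, although it was made with earlier results of these arrays known. Tpr and Nutf2, and genes such as Nup214 and Nup205 that fit the naming rule, were not analysed here.

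RNA of 21 cortices was measured on MOE430A 2.0 arrays, with 1 array for each mouse, all 2 weeks after doxycycline was withdrawn from the diet. The 5 dNLS bigenic mice carried tTA, a transactivator that doxycycline silences, and a transgene of line NLS4 for TDP-43 with a defective nuclear localization signal. The 4 WT bigenic mice carried tTA and a wild-type TDP-43 transgene of line WT12. The 4 dNLS monogenic mice carried the NLS4 transgene without tTA, and the 8 nontransgenic mice, 6 of line NLS4 and 2 of line WT12, carried neither transgene. All mice had a mixed C57BL/6J x C3HeJ background. Each TDP-43 protein was represented by 1 line, and no mice carried tTA alone. In the published description of these lines tTA is under the Camk2a promoter, which is active in forebrain neurons, so the RNA came from cells with and without the driven transgene. Males were 4 of the 5 dNLS bigenic and 1 of the 4 WT bigenic mice. They were also 3 of the 4 dNLS monogenic and 4 of the 8 nontransgenic mice. Every fit had a term for sex, except the alternative that left it out. Ages are not given in the labels.

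Proteins that are too large to diffuse through the nuclear pore pass it on transport receptors. Importin alpha adaptors read the classical nuclear localization signal and bind importin beta, encoded by Kpnb1, which carries the complex through the pore. Import receptors release their cargo when they meet Ran bound to GTP in the nucleus, and exportins pick up theirs there. The exchange factor Rcc1 on chromatin loads Ran with GTP, and Rangap1 at the cytoplasmic face triggers its hydrolysis, which gives transport its direction. Nucleoporins build the pore in layers: a Y-shaped scaffold, an inner ring, a channel filled with phenylalanine-glycine repeats, cytoplasmic filaments and a nuclear basket. TDP-43, an RNA-binding protein, is normally concentrated in the nucleus and enters it through importin alpha and importin beta. In the amyotrophic lateral sclerosis and frontotemporal dementia that involve it, TDP-43 is lost from the nuclei of affected neurons and accumulates in their cytoplasm.

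Array levels are log2 values as deposited, and a difference of 1 is a 2-fold change. Levels of different genes come from different probes and were not set against each other. The scale has a floor of 2.04, at which 30.7% to 32.4% of probe sets lay on each array. Of the 47 members, 44 were above this floor on all arrays, whereas Ranbp17 was at it on 20 arrays, Xpo4 on 17 and Tnpo2 on 1. The mean levels of Nup98 (2.66), Nup43 (2.56) and Tnpo2 (2.48) were also close to it, so changes in these genes are compressed. Some members above the floor repeated a value of their own on several arrays: 2.4026 for Tnpo2, 7.5972 for Nup107 and 5.8096 for Xpo5. What set these repeated values was not tested. The difference between the 3' and 5' beta-actin control probe sets, which grows as RNA is degraded, spanned 1.34 to 2.30 in dNLS bigenic arrays, 1.37 to 1.43 in WT bigenic arrays, 1.56 to 3.13 in dNLS monogenic arrays and 1.46 to 8.20 in nontransgenic arrays. The highest values, 4.70 and 8.20, belonged to nontransgenic arrays 4 and 6. The label of 1 nontransgenic mouse, male, went against its Xist level. Of 4 measured excitatory neuron markers 1 was lower in dNLS bigenic than in nontransgenic cortex, as were 2 of 6 interneuron, 1 of 6 astrocyte, 1 of 6 microglia and 1 of 5 oligodendrocyte markers, and none of these lists had a member that was higher. The summed level of 4 choroid plexus markers spanned 12.1 to 14.2 in dNLS bigenic and 10.6 to 13.9 in nontransgenic arrays, and none of the 4 passed the test. In whole cortex, fewer cells of a type and less RNA per cell cannot be told apart.

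The first comparison asked how the transport genes differed where TDP-43 with the defective signal was driven. In dNLS bigenic cortex, 9 of the 47 members rose and 3 fell relative to nontransgenic cortex, at an adjusted p under 0.05 in a limma fit over all 12393 genes. The increases comprised the adaptor Kpna4, the import receptors Kpnb1, Ipo7, Ipo8 and Tnpo2, the exportin Xpo1, the Ran cycle genes Rcc1 and Ranbp1, and the basket nucleoporin Nup50. The decreases were in the import receptor Tnpo1, the exportin Cse1l and Ran itself. No member changed by 2-fold or more. The arrays of the groups did not overlap for 7 members, 14.9%, against 12.5% of all genes. The 12 members were 25.5% of 47, against 22.3% of all genes in this comparison (10.8% higher and 11.5% lower), and among genes above the lowest value on all arrays 32.1% were called, against 11 of 44 members. The share of members that changed was thus near that of the whole table. The median difference was -0.01 over the members and 0 over all genes. When each array was centred on its median, all genes split into 971 higher and 1738 lower, in place of 1336 and 1423, and the members into 5 higher and 3 lower.

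**Figure D1:**
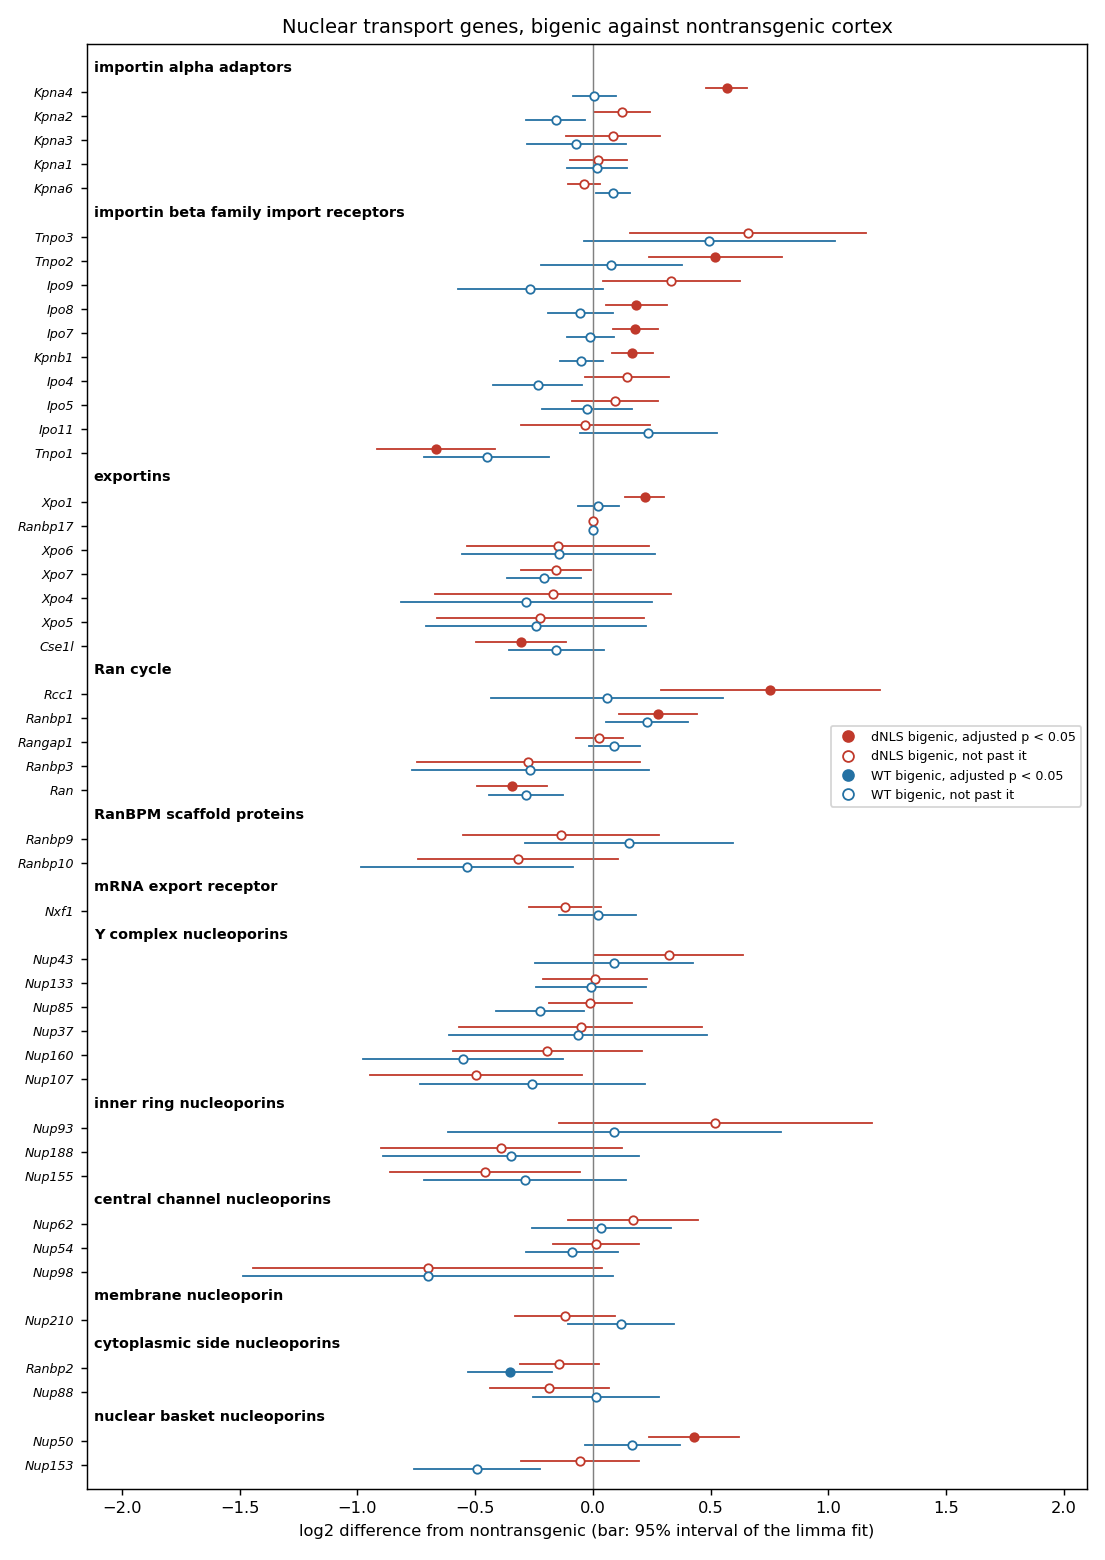
Difference in log2 level from nontransgenic cortex (horizontal axis) for all 47 members, grouped by role, in dNLS bigenic cortex (red, n = 5) and WT bigenic cortex (blue, n = 4) against 8 nontransgenic arrays. Points are limma estimates, bars their 95% intervals, and filled points passed an adjusted p of 0.05: 12 members in dNLS bigenic cortex and 1, Ranbp2, in WT bigenic cortex.

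Among the importin alpha adaptors, Kpna4 rose and the other 4 did not pass the test. Kpna4 was at 11.42, 11.32, 11.36, 11.39 and 11.44 in dNLS bigenic arrays, against 10.69 to 10.91 with a median of 10.83 in nontransgenic arrays. Every dNLS bigenic array lay above every nontransgenic array. The difference was 0.57 ± 0.041 (log2, SE), or 1.48-fold, with an adjusted p of 5.44e-08, and leaving out any 1 array moved it only between 0.54 and 0.58. Kpna2, another adaptor for classical signals, was at 9.64, 9.48, 9.54, 9.58 and 9.28 in dNLS bigenic arrays, against 9.23 to 9.43 with a median of 9.37 in nontransgenic arrays. These groups overlapped through 1 low dNLS bigenic array, and the difference of 0.12 ± 0.056 had an adjusted p of 0.139. Kpna1, Kpna3 and Kpna6 differed by -0.04 to 0.08.

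The import receptors of the importin beta family moved in both directions. Kpnb1, which pairs with importin alpha, was at 12.10, 12.05, 12.07, 12.06 and 12.12 in dNLS bigenic arrays, against 11.80 to 12.04 with a median of 11.92 in nontransgenic arrays. All 5 dNLS bigenic arrays lay above the 8 nontransgenic ones, by a small margin, and Kpnb1 differed by 0.17 ± 0.041 (adjusted p of 0.0062). Ipo7 and Ipo8, closely related receptors that import ribosomal proteins and signalling proteins among others, differed by 0.18 ± 0.045 (adjusted p of 0.00683) and 0.18 ± 0.062 (adjusted p of 0.0393). For both, the groups of arrays overlapped. With arrays centred on their medians these 3 calls were lost, at adjusted p-values of 0.265 for Kpnb1, 0.151 for Ipo7 and 0.342 for Ipo8. Ipo8 also lost its call when any of 8 arrays was left out, at an adjusted p of up to 0.098, with the compared groups alone (0.13), with sex read from Xist (0.0669) and with the mean of its probe sets (0.0838).

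Tnpo1, the receptor for proteins with a proline-tyrosine signal, such as the RNA-binding protein hnRNP A1, moved the other way. Its level was 10.59, 10.73, 10.79, 10.69 and 10.50 in dNLS bigenic arrays, against 10.97 to 11.84 with a median of 11.20 in nontransgenic arrays. All dNLS bigenic arrays were below all nontransgenic ones, and the difference was -0.67 ± 0.12, a 1.59-fold decrease with an adjusted p of 4.84e-04. Without nontransgenic arrays 4 and 6, whose Tnpo1 levels were the highest, it was -0.53. Its paralog Tnpo2 was at 3.22, 3.00, 3.18, 2.40 and 2.40 in dNLS bigenic arrays, against 2.04 to 2.40 in nontransgenic arrays. The levels above 2.40 came from 3 dNLS bigenic arrays, all near the bottom of the scale, and the difference was 0.52 ± 0.13 (adjusted p of 0.0086). With the arrays of the compared groups alone the Tnpo2 call was lost, at an adjusted p of 0.0637, and the other Tnpo2 probe set was at the floor on all 21 arrays.

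Tnpo3, the import receptor for serine and arginine-rich splicing factors, did not pass the test although its arrays did not overlap. It was at 11.72, 11.75, 11.66, 11.77 and 11.89 in dNLS bigenic arrays, against 9.65 to 11.56 with a median of 11.27 in nontransgenic arrays. The difference was 0.66 ± 0.24 with an adjusted p of 0.057. The lowest value belonged to nontransgenic array 6, and without nontransgenic arrays 4 and 6 the difference was 0.45 with an adjusted p of 1.1e-04. It also passed the test with arrays centred on their medians, at 0.043, and against nontransgenic arrays of line NLS4 alone, at 0.0378. The remaining receptors Ipo4, Ipo5, Ipo9 and Ipo11 differed by -0.03 to 0.33 and did not pass it.

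Of 7 exportins, Xpo1 rose and Cse1l fell. Xpo1, also called CRM1, exports proteins with leucine-rich signals, and was at 11.55, 11.62, 11.63, 11.59 and 11.46 in dNLS bigenic arrays, against 11.22 to 11.47 with a median of 11.33 in nontransgenic arrays. The groups met at 1 array each, and the difference was 0.22 ± 0.038 with an adjusted p of 4.4e-04, or of 0.0631 with arrays centred on their medians. Cse1l returns importin alpha to the cytoplasm after its cargo is released. It was at 10.96, 11.05, 10.85, 10.84 and 10.99 in dNLS bigenic arrays, against 11.02 to 11.66 with a median of 11.23 in nontransgenic arrays. The groups overlapped slightly, the difference was -0.30 ± 0.09 (adjusted p of 0.021), and without dNLS bigenic array 3 or 4 the call was lost, at an adjusted p of up to 0.0532, as with the compared groups alone, at 0.0877. Xpo4, Xpo5, Xpo6 and Xpo7 differed by -0.22 to -0.15 and did not pass the test, and Ranbp17 was at the lowest value on nearly all arrays.

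In the Ran cycle, Ran fell while its exchange factor Rcc1 and its binding protein Ranbp1 rose. Ran was at 13.32, 13.27, 13.26, 13.29 and 13.17 in dNLS bigenic arrays, against 13.38 to 13.84 with a median of 13.55 in nontransgenic arrays. The groups did not overlap, and the difference was -0.34 ± 0.07, with an adjusted p of 0.00155, or -0.27 without nontransgenic arrays 4 and 6. Rcc1 was at 7.05, 6.68, 6.74, 6.99 and 7.00 in dNLS bigenic arrays, against 5.26 to 6.94 with a median of 6.17 in nontransgenic arrays. A single nontransgenic array reached the dNLS bigenic range. The Rcc1 difference of 0.75 ± 0.22 had an adjusted p of 0.0193, which became 0.0621 without dNLS bigenic array 5 0.0528 with arrays centred on their medians and 0.0548 with the compared groups alone.

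Ranbp1, which helps Rangap1 act on Ran at the cytoplasmic side, was at 10.60, 10.73, 10.62, 10.64 and 10.64 in dNLS bigenic arrays, against 10.10 to 10.58 with a median of 10.41 in nontransgenic arrays. All dNLS bigenic arrays were higher, and the difference was 0.28 ± 0.078 (adjusted p of 0.0167). Rangap1 was at 12.21, 12.32, 12.22, 12.19 and 12.30 in dNLS bigenic arrays, against 12.05 to 12.36 with a median of 12.22 in nontransgenic arrays. The ranges coincided, and the 95% interval of the Rangap1 difference was -0.07 to 0.13. Ranbp3, a cofactor of Xpo1, and the scaffold proteins Ranbp9 and Ranbp10 differed by -0.32 to -0.14 and did not pass the test. The mRNA export receptor Nxf1 was at 11.24, 11.37, 11.34, 11.15 and 11.40 in dNLS bigenic arrays, against 11.11 to 11.58 with a median of 11.42 in nontransgenic arrays. Its groups overlapped and its difference of -0.12 ± 0.072 had an adjusted p of 0.299.

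**Figure D2:**
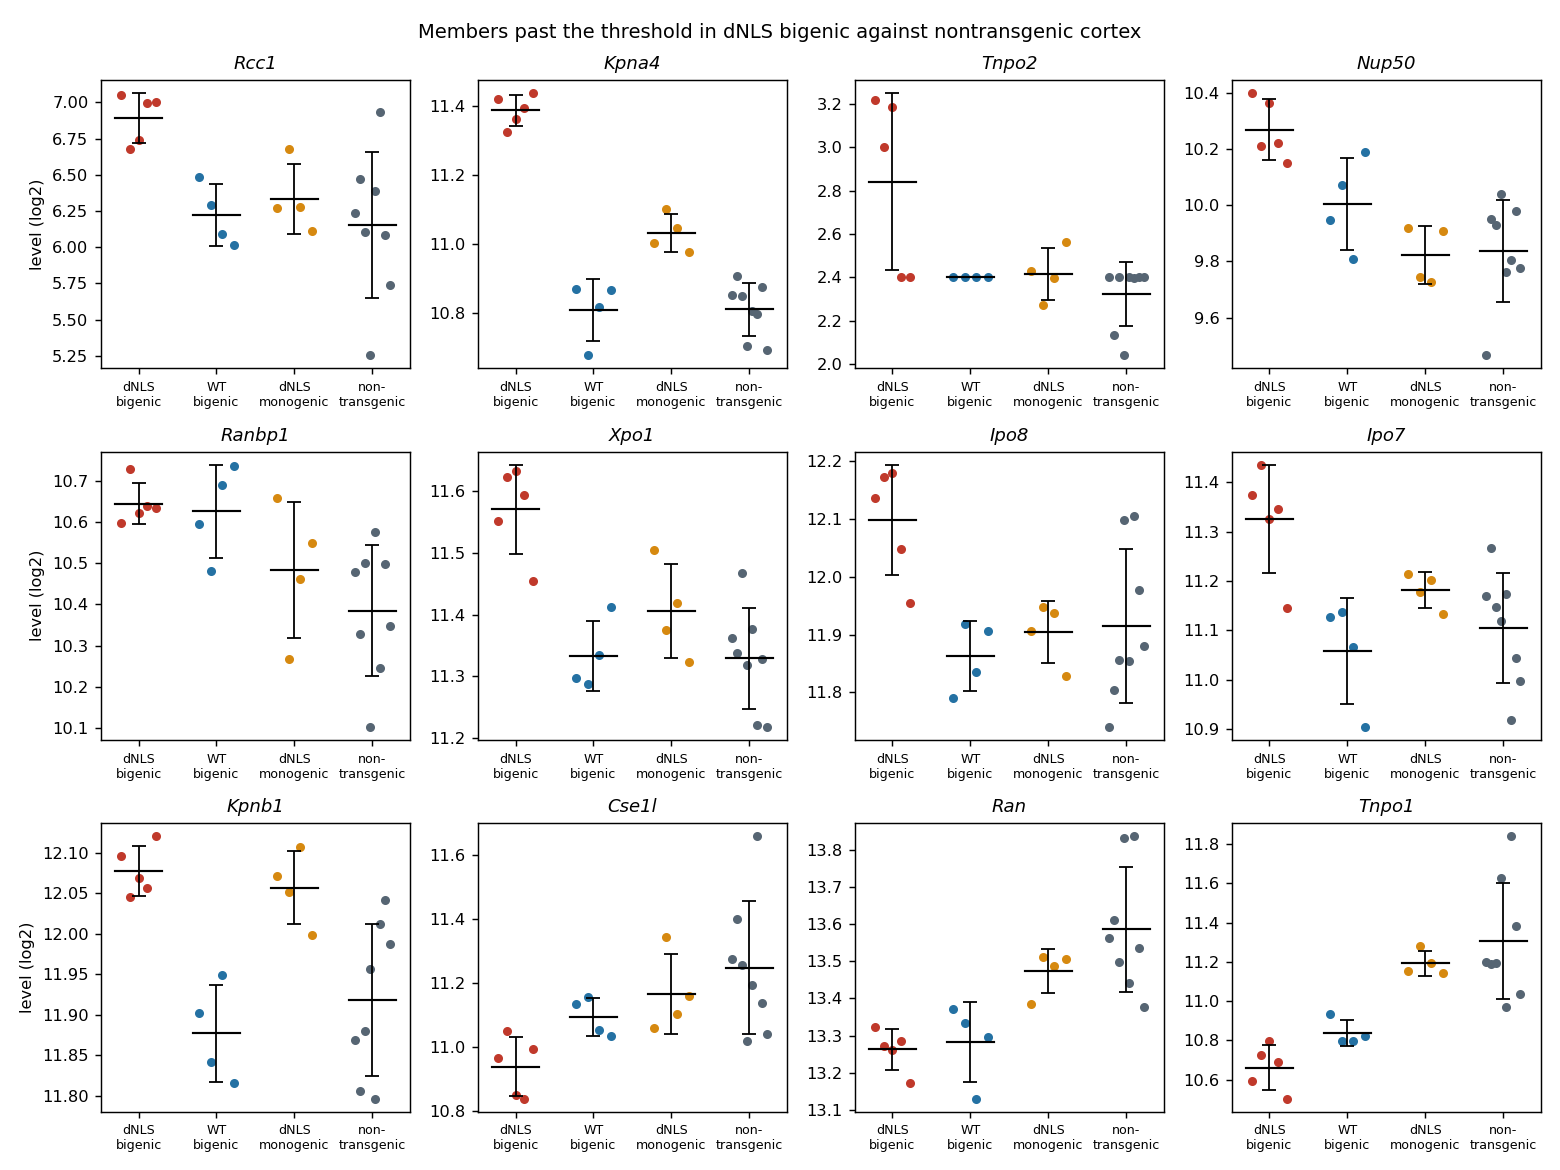
Log2 level (vertical axis) on each array of the 12 members that passed the test between dNLS bigenic and nontransgenic cortex, for the 4 genotype groups. Points are arrays, horizontal lines group means and error bars SD; Kpna4, Nup50, Ranbp1 and Kpnb1 lie higher on all dNLS bigenic arrays than on any nontransgenic array, and Ran and Tnpo1 lower.

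Of the 17 nucleoporins, only Nup50 passed the test in this comparison, where 22.3% of all genes did. These calls rest on the brightest probe set of each gene. Other probe sets of Nup62, Nup85, Nup133 and Ranbp2 passed it. Nup62 and Ranbp2 were also called with the mean of all probe sets of a gene. Nup50 sits on the nuclear basket, binds importin alpha and helps to release its cargo. It was at 10.40, 10.21, 10.36, 10.22 and 10.15 in dNLS bigenic arrays, against 9.47 to 10.04 with a median of 9.87 in nontransgenic arrays. Every dNLS bigenic array lay above the nontransgenic range, and the difference was 0.43 ± 0.09, or 1.35-fold, with an adjusted p of 0.00196. Nup62, a core protein of the central channel, was at 9.46, 9.45, 9.40, 9.37 and 9.90 in dNLS bigenic arrays, against 8.95 to 9.85 with a median of 9.39 in nontransgenic arrays. The ranges overlapped almost fully, and the difference was 0.17 ± 0.13 (adjusted p of 0.459).

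In this comparison, none of the 6 Y complex, 3 inner ring, 3 channel, 2 cytoplasmic side and 1 membrane nucleoporins passed the test. That holds for the brightest probe set of each gene. The Y complex differences ran from -0.50 for Nup107 to 0.32 for Nup43, and those of the inner ring from -0.46 for Nup155 to 0.52 for Nup93. Nup93 spread widely, at 9.12 to 10.23 in dNLS bigenic arrays and 8.49 to 10.85 in nontransgenic arrays. Its highest value was on nontransgenic array 6. Nup98, a channel protein measured near the lowest value, differed by -0.70 ± 0.35 (adjusted p of 0.186). Its levels were 2.32 to 2.37 in dNLS bigenic arrays and 2.32 to 4.65 in nontransgenic arrays. Ranbp2, a SUMO ligase that forms the cytoplasmic filaments, differed by -0.14 ± 0.08, and Nup153 of the basket by -0.06 ± 0.12. Without nontransgenic arrays 4 and 6, all 12 calls remained and 5 were added, in Ipo9, Ipo11, Nup43, Nup93 and Tnpo3.

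The difference between 3' and 5' beta-actin probe sets moved with the level of some members. Nontransgenic array 6, at 8.20, held the lowest Tnpo3 and Ipo11 levels and the highest Tnpo1, Ran, Cse1l and Nup93 levels of its group. The part of RNA degradation in these differences was not tested beyond refits: with the actin difference as a covariate 19 members (40.4%) were called in place of 12, against 26.9% of all genes. Without nontransgenic arrays 4 and 6 there were 17 members (36.2%), against 26.6% of all genes. Without nontransgenic array 6 alone there were 19 members (40.4%), against 26.8% of all genes. All genes include 2854 at the lowest value on all arrays. In the reported fit, 32.1% of genes above it on all arrays were called, against 11 of 44 members. Such shares were not computed for the refits, so an excess of members is not shown.

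**Figure D3:**
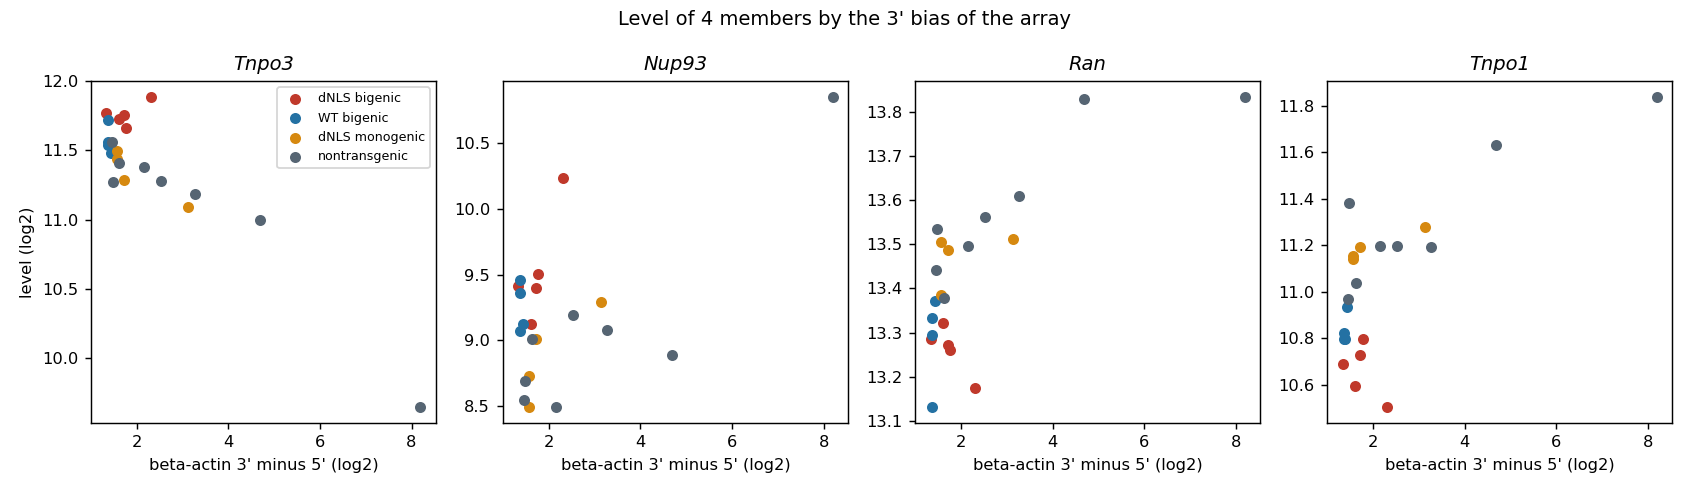
Log2 level (vertical axis) of Tnpo3, Nup93, Ran and Tnpo1 on each of the 21 arrays against the difference between 3' and 5' beta-actin control probe sets (horizontal axis, log2), coloured by genotype. Nontransgenic array 6, at 8.20 on the horizontal axis, is the lowest array for Tnpo3 and the highest for Nup93, Ran and Tnpo1.

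The promoters of 2 members that rose and 2 that fell are shown because Kpna4 and Nup50, and Tnpo1 and Ran, moved in opposite directions with no overlap between dNLS bigenic and nontransgenic arrays. Windows run from 250 bases before to 50 bases after the gene start in RefSeq on build GRCm38.p6, in the direction of transcription. Capitals mark matches, on either strand and overlaps included, to GCATGCG, the core of the nuclear respiratory factor element, to CCGGAAG for ETS factors, GGGCGG for the GC box, CCAAT and TGATGNAA for the ATF4 element. Kpna4 lies at chr3:69127043-69127342 on the minus strand, Nup50 at chr15:84923178-84923477 on the plus strand, Tnpo1 at chr13:98926335-98926634 on the minus strand, and Ran at chr5:129019906-129020205 on the plus strand.
Kpna4: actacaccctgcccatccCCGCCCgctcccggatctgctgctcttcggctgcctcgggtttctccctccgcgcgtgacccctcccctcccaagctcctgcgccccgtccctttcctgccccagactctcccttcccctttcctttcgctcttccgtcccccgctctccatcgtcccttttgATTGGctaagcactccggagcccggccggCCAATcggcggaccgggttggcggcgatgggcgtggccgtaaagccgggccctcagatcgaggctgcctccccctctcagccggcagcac
Nup50: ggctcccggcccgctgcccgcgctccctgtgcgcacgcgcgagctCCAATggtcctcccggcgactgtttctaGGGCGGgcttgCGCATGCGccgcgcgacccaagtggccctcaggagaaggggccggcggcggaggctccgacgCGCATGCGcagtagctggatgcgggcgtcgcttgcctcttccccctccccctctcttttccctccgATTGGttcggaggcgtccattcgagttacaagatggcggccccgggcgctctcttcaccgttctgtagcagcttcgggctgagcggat
Tnpo1: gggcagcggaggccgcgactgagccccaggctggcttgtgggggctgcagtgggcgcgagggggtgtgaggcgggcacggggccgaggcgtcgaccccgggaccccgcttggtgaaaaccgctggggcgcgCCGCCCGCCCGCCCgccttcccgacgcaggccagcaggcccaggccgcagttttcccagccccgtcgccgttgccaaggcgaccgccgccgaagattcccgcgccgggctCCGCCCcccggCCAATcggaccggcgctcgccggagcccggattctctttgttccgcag
Ran: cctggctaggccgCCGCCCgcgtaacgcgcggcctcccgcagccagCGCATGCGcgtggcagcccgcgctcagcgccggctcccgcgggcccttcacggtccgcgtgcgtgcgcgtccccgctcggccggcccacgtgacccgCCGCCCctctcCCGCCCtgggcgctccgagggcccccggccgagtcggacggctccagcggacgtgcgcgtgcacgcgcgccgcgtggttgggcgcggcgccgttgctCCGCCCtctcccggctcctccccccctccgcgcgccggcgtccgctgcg

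The Nup50 window held 4 matches to GCATGCG, in pairs that overlap on opposite strands, 1 GC box and 2 CCAAT boxes. The Ran window held 2 such matches, also an overlapping pair, and 4 GC boxes. The Kpna4 window held 1 GC box and 2 CCAAT boxes, and the Tnpo1 window shown 4 GC boxes and 1 CCAAT box. A second RefSeq start of Tnpo1, with its window at chr13:98890993-98891292 on the minus strand, held 0 matches to any of these motifs and is not printed. Windows were found for 37 of the 47 members, 45 windows in all. GCATGCG was in 15.6% of these windows and in 3.58% of all 32851 promoter windows, CCGGAAG in 17.8% and 8.86%, the GC box in 68.9% and 35.7%, and the CCAAT box in 46.7% and 37.4%. TGATGNAA was in 0 of the 45 windows and in 3.97% of all windows. The members were enumerated by name and not by the comparison, and a match to letters is not evidence of binding.

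Several members had further probe sets, which read other stretches of the transcripts. Of 45 such probe sets in 26 members, 10 were higher and 4 lower in dNLS bigenic than in nontransgenic cortex. That is 31.1% (22.2% higher and 8.89% lower), against 16.7% (9.87% higher and 6.87% lower) of all 7987 further probe sets of genes with several. Probe sets of 1 gene read the same transcripts and are not independent of each other. In 8 cases the call was that of the gene's brightest probe set, in 6 cases the brightest had not passed the test, and 0 were called in the opposite direction. A dim Xpo1 probe set had a larger difference than any used for the members: it was at 5.18, 5.41, 5.31, 4.92 and 5.32 in dNLS bigenic arrays, against 3.02 to 4.06 in nontransgenic arrays. The groups were far apart, by 1.62 ± 0.14 (adjusted p of 2.8e-07 over all probe sets). The remaining Xpo1 probe set differed by 0.05 ± 0.061, so the Xpo1 probe sets did not move equally.

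The Kpna1 probe sets were spread at least as widely. There were 5, which differed by -0.08 to 1.81, and none passed the test. The one at 1.81 was at 7.28, 7.96, 7.97, 8.12 and 6.46 in dNLS bigenic arrays, against 2.65 to 8.59 in nontransgenic arrays, with the lowest value on nontransgenic arrays 4 and 6, and its difference of 1.81 ± 0.95 had an adjusted p of 0.228. A Nup54 probe set differed by -1.02 ± 0.41 (adjusted p of 0.0951) where the brightest differed by 0.01.

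The dim Kpna4 probe set differed by 0.90 ± 0.083 and a second Nup50 probe set by 0.86 ± 0.21, while the remaining Nup50 probe set differed by -0.30 ± 0.22 and did not pass the test. A dim second Tnpo1 probe set differed by -0.92 ± 0.31. Of 6 Ran probe sets, 3 were lower, 2 more differed by -0.21 and -0.11 without passing the test, and 1 was at the lowest value. Several Ran probe sets, and the brightest of Kpnb1 and Nup62, belong to the class of Affymetrix designs that can also bind related transcripts. The 4 Kpnb1 probe sets differed by 0.12 to 0.38, all upward. An Ipo4 probe set differed by 1.14 ± 0.33, a Ranbp2 probe set by -0.46 ± 0.096, a Nup62 probe set by 0.46 ± 0.12, a Tnpo3 probe set by 0.47 ± 0.15, a Nup85 probe set by 0.28 ± 0.078 and a Nup133 probe set near the floor by 0.14 ± 0.041, and each passed the test where the gene's brightest probe set had not.

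**Figure D4:**
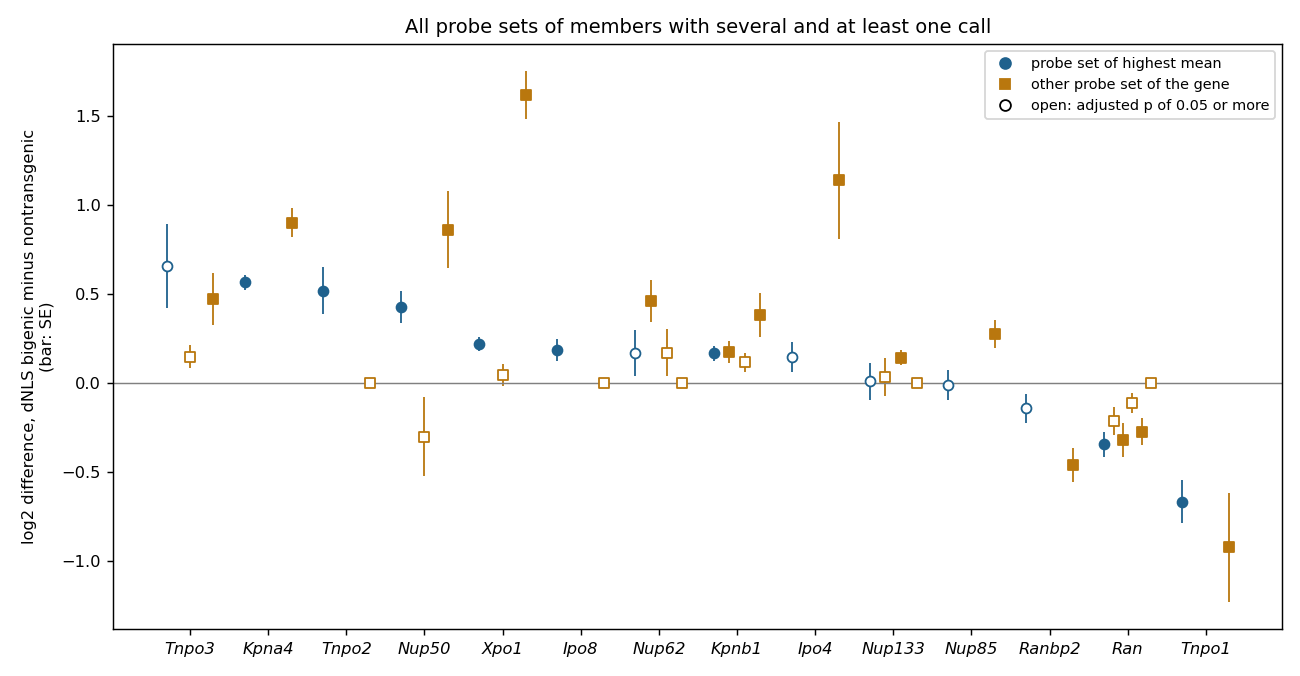
Difference in log2 level between dNLS bigenic and nontransgenic cortex (vertical axis, bars SE) for every probe set of the 14 members that had several probe sets and at least 1 call, of 18 members with a call. Circles are the brightest probe sets, squares the others and open symbols missed an adjusted p of 0.05; the highest square is the dim Xpo1 probe set at 1.62.

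Of 34 further genes of the transport pathway, listed by function, 27 were measured, and 2 were higher and 6 lower in dNLS bigenic than in nontransgenic cortex. That is 29.6%, against 22.3% of all genes and 32.1% of genes above the lowest value on all arrays. Rangrf, the mouse homolog of yeast Mog1, binds Ran and promotes release of its nucleotide. It was at 8.82, 9.02, 8.71, 8.82 and 8.93 in dNLS bigenic arrays, 6.78 to 7.04 in WT bigenic arrays, 6.64 to 7.30 in dNLS monogenic arrays and 6.57 to 7.59 in nontransgenic arrays. The dNLS bigenic arrays lay far above all 3 other groups. Rangrf was 3.82-fold higher than in nontransgenic cortex (1.93 ± 0.15, adjusted p of 1.03e-07), and it also passed the test against WT bigenic (1.90) and dNLS monogenic cortex (2.01).

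Xpot, the exportin of tRNAs, was at 9.84, 9.81, 9.74, 9.77 and 9.64 in dNLS bigenic arrays, against 10.30 to 11.24 in nontransgenic arrays, and fell by 0.82 ± 0.12 (adjusted p of 1.22e-04). Pom121, which anchors the pore in the membrane, was at 11.08, 10.76, 10.87, 10.83 and 10.70 in dNLS bigenic arrays, against 11.24 to 12.005 in nontransgenic arrays, and fell by 0.66 ± 0.11 (adjusted p of 2.37e-04). WT bigenic and dNLS monogenic cortex also differed from nontransgenic cortex in Pom121, by -0.32 and -0.38, without passing the test. Every WT bigenic array was below every nontransgenic array for Pom121. Gle1, which activates the helicase that strips exported mRNA of its proteins, was at 9.87, 9.83, 9.62, 9.85 and 9.88 in dNLS bigenic arrays, against 10.05 to 10.68 in nontransgenic arrays. Gle1 fell by 0.61 ± 0.097 (adjusted p of 1.9e-04), and in all 3 genes no dNLS bigenic array reached the nontransgenic range. Nupl1, a channel nucleoporin also called Nup58, fell by 0.41 ± 0.13 (adjusted p of 0.0337). Eny2, a subunit of the mRNA export complex at the basket, rose by 0.43 ± 0.099 (adjusted p of 0.00403). Thoc1 and Thoc7, subunits of an mRNA packaging complex, fell by 0.11 and 0.20. Thoc7 was also lower in WT bigenic than in nontransgenic cortex, by 0.26 (adjusted p of 0.0196). Against WT bigenic and dNLS monogenic cortex, Xpot passed the test (-0.53 and -0.62) and Pom121 did not (-0.34 and -0.28). Gle1 and Eny2 passed it against dNLS monogenic (-0.49 and 0.36) but not WT bigenic cortex (-0.30 and 0.19). Nupl1, Thoc1 and Thoc7 passed it against neither.

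**Figure D5:**
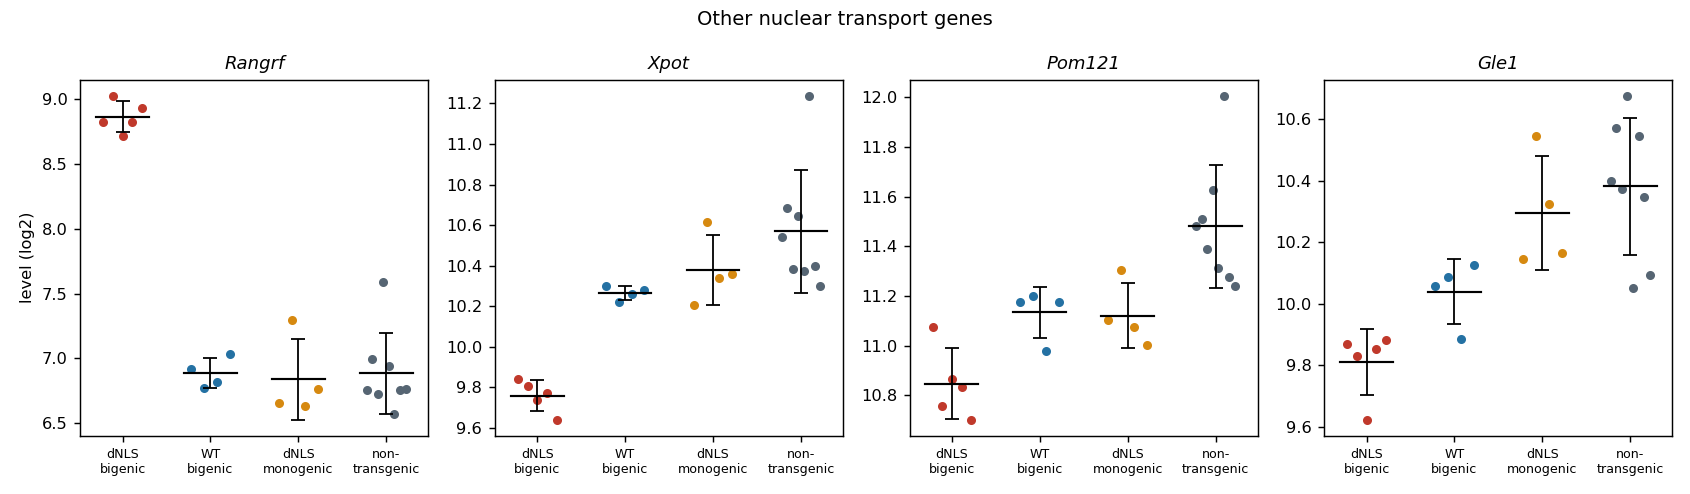
Log2 level (vertical axis) on each array of Rangrf, Xpot, Pom121 and Gle1 in the 4 genotype groups, with points for arrays, lines for means and error bars for SD. All 5 dNLS bigenic arrays lie above every other array for Rangrf, at 8.71 to 9.02, and below every nontransgenic array for the other genes.

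The second comparison set mice that express wild-type TDP-43 against nontransgenic mice. Of the 47 members 1 was lower and 0 were higher in WT bigenic cortex, which is 2.13%, against 2.23% of all genes (0.686% higher and 1.54% lower). At an unadjusted p under 0.05 there were 12 members and 18.5% of all genes. Ranbp2 was at 10.99, 10.81, 10.79 and 11.10 in WT bigenic arrays, against 11.06 to 11.53 with a median of 11.28 in nontransgenic arrays. The groups touched at 1 WT bigenic array, and Ranbp2 fell by 0.35 ± 0.085 with an adjusted p of 0.0426. Leaving out any of 7 arrays (nontransgenic 2, 3, 6 or 7 or WT bigenic 1, 2 or 3) ended this call, at an adjusted p of up to 0.151. It was also lost, at 0.0527 to 0.238, with the compared groups alone, with the actin covariate, without nontransgenic arrays 4 and 6, with controls of the same line and with the mean of its probe sets.

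Ran and Tnpo1 narrowly missed the test in WT bigenic cortex. Ran was at 13.37, 13.33, 13.13 and 13.30 in WT bigenic arrays, against 13.38 to 13.84 in nontransgenic arrays, a difference of -0.29 ± 0.075 (adjusted p of 0.0539). Tnpo1 was at 10.93, 10.80, 10.80 and 10.82 in WT bigenic arrays, against 10.97 to 11.84 in nontransgenic arrays, a difference of -0.45 ± 0.13 (adjusted p of 0.0701). These were the 2 members whose arrays did not overlap, 4.26% of members, against 5.25% of all genes. Without nontransgenic arrays 4 and 6 both passed the test and Ranbp2 did not. Nup153 differed by -0.49 ± 0.13 (adjusted p of 0.0512), and Kpna4 by 0.01 with a 95% interval of -0.09 to 0.10. Centring arrays on their medians moved the median difference of all genes to -0.11 and split their calls into 226 higher and 4740 lower, in place of 85 and 191, and those of the members into 0 higher and 11 lower.

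The third comparison set the TDP-43 proteins against each other, with tTA in both groups but different lines. In dNLS bigenic cortex 7 members were higher and 0 lower than in WT bigenic cortex. That is 14.9%, against 10.8% of all genes (6.24% higher and 4.53% lower). Among genes above the lowest value on all arrays 15.5% were called, against 7 of 44 members, so the shares were close. The arrays did not overlap for 12 members, 25.5%, against 22.4% of all genes. Of these 12, 6 passed the test and 6, Ipo8, Ipo11, Kpna6, Nup85, Rcc1 and Tnpo1, did not. The 7 members that passed it were the adaptors Kpna4 and Kpna2, of which Kpna2 overlapped, the receptors Kpnb1, Ipo4, Ipo7 and Ipo9, and Xpo1, with no nucleoporin among them. Kpna4 was at 11.32 to 11.44 in dNLS bigenic arrays, against 10.87, 10.68, 10.82 and 10.87 in WT bigenic arrays, a gap of 0.56 ± 0.05 (adjusted p of 2.92e-06). No arrays overlapped. Ipo9, which imports ribosomal proteins and histones, was at 10.55, 10.57, 10.53, 10.40 and 10.65 in dNLS bigenic arrays, against 9.79, 9.75, 10.11 and 10.05 in WT bigenic arrays, and was higher by 0.60 ± 0.17 (adjusted p of 0.0286). Ipo4, another receptor for histones and ribosomal proteins, was at 11.56, 11.38, 11.57, 11.24 and 11.55 in dNLS bigenic arrays, against 10.915, 11.002, 11.172 and 11.017 in WT bigenic arrays, and was higher by 0.38 ± 0.1 (adjusted p of 0.0241).

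In neither Ipo9 nor Ipo4 did the groups overlap. Kpna2 was higher by 0.28 ± 0.069, Kpnb1 by 0.22 ± 0.05, Xpo1 by 0.20 ± 0.047 and Ipo7 by 0.19 ± 0.055 in dNLS bigenic than in WT bigenic cortex. Without WT bigenic array 1 the members called were 2, Kpna4 and Kpnb1. Ipo4, Ipo7 and Ipo9 each lost the call without other arrays too (Ipo4 without dNLS bigenic 3 or 5, Ipo7 without dNLS bigenic 1 or 2 or WT bigenic 4, Ipo9 without dNLS bigenic 2 or 5 or WT bigenic 2), at adjusted p-values of up to 0.203, 0.15 and 0.16. Centring arrays on their medians left 3, with the calls of Ipo7, Ipo9, Kpna2 and Kpnb1 lost at 0.0513 to 0.0841. Ipo7 and Kpna2 were also lost with quantile normalization (0.0769 and 0.0555) and with the compared groups alone (0.108 and 0.13), and Ipo4 with the mean of its probe sets (0.346). Nup50, which differed from nontransgenic cortex, was higher by 0.26 ± 0.11 than in WT bigenic cortex with an adjusted p of 0.164. Tnpo1 differed by -0.21 ± 0.14, with a 95% interval of -0.52 to 0.09, and Ran by -0.06, with an interval of -0.24 to 0.12.

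The fourth comparison, within line NLS4, set the driven against the undriven transgene. In dNLS bigenic cortex 3 members were higher and 1 lower than in dNLS monogenic cortex, which is 8.51%, against 14.3% of all genes (7.76% higher and 6.54% lower). The order of these shares depended on the fit. Without nontransgenic arrays 4 and 6, 16 members were called, and with the actin covariate 13. In both refits the share of members was above that of all genes. With arrays centred on their medians, 3 members were called, and their share stayed below. In the reported fit, 20.6% of genes above the lowest value on all arrays were called, against 4 of 44 members. Such shares were not computed for the refits, so the orders given for them hold for all genes only. The arrays did not overlap for 12 members, 25.5%, against 19.8% of all genes. Nup50 was at 10.15 to 10.40 in dNLS bigenic arrays, against 9.92, 9.74, 9.73 and 9.91 in dNLS monogenic arrays, and rose by 0.45 ± 0.1 (adjusted p of 0.00623). Kpna4 was at 11.32 to 11.44 in dNLS bigenic arrays, against 11.004, 11.102, 11.047 and 10.978 in dNLS monogenic arrays, and rose by 0.35 ± 0.047 (adjusted p of 5.9e-05). Tnpo1 was at 10.50 to 10.79 in dNLS bigenic arrays, against 11.16, 11.28, 11.19 and 11.14 in dNLS monogenic arrays, and fell by 0.54 ± 0.13 (adjusted p of 0.0112). In all 3 genes the groups were apart. Xpo1 rose by 0.16 ± 0.044 with an adjusted p of 0.0182, and its call was lost without dNLS monogenic array 2 or 4, at up to 0.0633, and with arrays centred on their medians, at 0.209. The Tnpo1 call was lost with the mean of its probe sets, at 0.149. Ran was at 13.17 to 13.32 in dNLS bigenic arrays, against 13.38, 13.51, 13.49 and 13.51 in dNLS monogenic arrays, with no overlap, and its difference of -0.21 ± 0.08 had an adjusted p of 0.0928.

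The fifth comparison set the undriven transgene against none. No member and no gene passed the test between dNLS monogenic and nontransgenic cortex (0 of 47 and 0% of all genes with limma), and at an unadjusted p under 0.05 there were 2 members and 196 genes. Those 2 members were Kpna4 and Kpnb1. Kpna4, at 10.98 to 11.10 in dNLS monogenic arrays and 10.69 to 10.91 in nontransgenic arrays, did not overlap between the groups, as for 0.0646% of all genes. Its difference of 0.21 ± 0.043 had an adjusted p of 0.841. Kpnb1 was at 12.071, 12.052, 12.107 and 11.999 in dNLS monogenic arrays, against 11.80 to 12.04 in nontransgenic arrays, with overlap, and differed by 0.15 ± 0.043 (adjusted p of 1). The comparisons with nontransgenic cortex share its arrays, and those of dNLS bigenic cortex share its arrays, so they are not independent of each other.

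Tardbp, the mouse gene for TDP-43, had 4 probe sets, which gave differences of -1.32, -0.22, 1.11 and -0.43 between dNLS bigenic and nontransgenic cortex. The first 3 passed the test, at adjusted p-values of 1.72e-08, 0.0237 and 3.42e-04. In WT bigenic cortex none of the 4 did. Whether these probe sets also read the human transgene was not tested, so they do not measure its expression.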

How the data were processed

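The deposited table gives a log2 level for each of 22690 probe sets on 21 arrays, 1 array per mouse. The submitters' processing notes name Partek, without version or role, and how the authors corrected background, normalized or summarized the probes is not given there. No source names the log base; the span of 2.04 to 15.1 fits log2. The number of arrays limits the precision. Total RNA had integrity numbers of 7 or greater and was amplified from a poly(T) primer, per the labels' protocols, so probe sets far from the 3' end read less of degraded RNA.

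Of the probe sets, 64 were controls, 20380 named 1 symbol in the supplied annotation, 691 named several and 1555 none; the last 2 classes were left out, with 2 probe sets that name Ipo4 or Xpo4 with another gene. Through Entrez identifiers, 20351 matched the RefSeq table of GRCm38.p6, 29 did not and 0 symbols changed. Promoter sequences are RefSeq's on that build.

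Groups and sex followed the labels. A model of 4 groups and sex was fitted to all 21 arrays with limma 3.58.1 in R 4.3.3 (lmFit, eBayes with trend), with Benjamini-Hochberg adjustment over 12393 genes and a threshold of 0.05; errors are moderated SEs, and intervals use the moderated t distribution. The fit was also run on simulated data with independent normal noise and a single spread per gene. Those data had no floor and no arrays with a high beta-actin difference, so they do not speak to the effect of either. Probe sets were fitted in the same way, with adjustment over all of them. Labels number mice only by order, so replicate numbers name arrays and pair none, and p-values measure the spread between mice.

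Per-array levels were planned for the 6 largest increases and decreases past the threshold in dNLS bigenic against nontransgenic cortex, the 3 largest in each direction in the other comparisons, 9 core genes (Ran, Rangap1, Rcc1, Kpna2, Kpnb1, Xpo1, Cse1l, Nxf1, Nup62), up to 4 other pathway genes in each direction and Tardbp. Ipo7, Ipo8, Tnpo3, Nup93, Nup98, Nup153 and the Thoc genes, which that rule does not name, the further probe sets and the promoters were picked after their values were seen. The members and lists were chosen with earlier results of these data known. Alternatives covered the sex term, centring, quantile normalization, a filter on low values, the arrays fitted, the intensity trend, array weights, the actin covariate, line-matched controls, the probe-set summary and leaving out arrays.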

Additional observations from a re-analysis of the deposited data

Results flagged for a closer look

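Among 188 sets of member values, 1 for each member and genotype group of 4 to 8 arrays, 22 had an array far from the others of its group by Dixon's test at the 95% level, in 19 members. Chance calls about 5% of such sets where values are normal and untied. In some flagged sets, such as those of Xpo4 and Ranbp17, arrays shared the same value, so a small departure was enough. The count can therefore not be set against 5%. Nontransgenic array 6 held 5 of the 22 and dNLS monogenic array 2 held 4.

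In dNLS bigenic cortex, array 5 stood apart with Nup62 at 9.90 (high), Ipo5 at 10.94 (low) and Ranbp9 at 11.09 (low), array 4 with Ranbp10 at 8.53 (low), and array 3 with Xpo4 at 2.08 (high). In WT bigenic cortex, array 2 stood apart with Nup107 at 7.73, and array 3 with Nup188 at 4.49, Nup210 at 10.20 and Xpo4 at 2.07. In dNLS monogenic cortex, array 1 stood apart with Nup155 at 9.83, array 2 with Ipo9 at 10.21, Nup98 at 3.46, Ranbp3 at 9.80 and Xpo6 at 9.47, and array 4 with Kpna1 at 11.84 and Nup107 at 7.19. In nontransgenic cortex, array 6 stood apart with Ipo11 at 11.19 and Tnpo3 at 9.65, both low, and Nup93 at 10.85, Xpo4 at 3.87 and Xpo5 at 7.24, all high. Nontransgenic array 2 stood apart with Ranbp17 at 2.05, next to arrays at the lowest value.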

How the results depend on the processing

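No paired analysis was possible because the labels number the mice only by order, and no number is shared between groups by design. The direction of every called member held under all alternatives: of 5306 values of single members, 0 changed sign past the threshold, 60 lost a call and 175 gained one. The counts moved more. Of members in dNLS bigenic against nontransgenic cortex, 12 in the reported fit, 23 were called with array weights and 19 with the actin covariate. Between 8 and 17 were called under the other alternatives apart from single arrays left out. In place of 2759 of all genes, array weights called 4247, the actin covariate 3339 and the fit without nontransgenic 4 and 6 called 3300. Centring called 971 higher and 1738 lower. In WT bigenic against nontransgenic cortex (1 member, 276 genes), members numbered 11 with centring, 6 with array weights, 4 with the low-value filter, without the sex term or with sex read from Xist, 2 without nontransgenic 4 and 6, and 0 with the compared groups alone, the actin covariate or controls of the same line. All genes there numbered 4966 with centring, 869 with weights, 505 without the sex term, 424 without nontransgenic 4 and 6, 170 with the mean of probe sets, 163 with the actin covariate, 1 with same-line controls and 0 with the compared groups alone. In dNLS bigenic against WT bigenic cortex (7 members, 1334 genes), members numbered 17 with weights, 14 without nontransgenic 4 and 6, 12 with the actin covariate and also with the compared groups alone, and 3 with centring. The counts of all genes were 3108 with weights, 2437 with the covariate, 2320 with the groups alone and 2274 without nontransgenic 4 and 6. With centring, 680 of all genes were higher and 383 lower. In dNLS bigenic against dNLS monogenic cortex (4 members, 1773 genes), members numbered 21 with weights, 16 without nontransgenic 4 and 6, 13 with the covariate and 12 with the groups alone, and all genes 4318, 2885 and 2890 under the first 3. Arrays outside a comparison entered its fit only through the spread and the sex term, which all groups share. How far this made the shifts was not tested. Leaving out 1 array gave 10 to 19 members and 2365 to 3316 genes in the first comparison, 0 to 6 and 37 to 579 in WT bigenic against nontransgenic, 2 to 8 and 817 to 1301 in dNLS bigenic against WT bigenic, 3 to 7 and 1373 to 1683 in dNLS bigenic against dNLS monogenic, and 0 and 0 to 1 in dNLS monogenic against nontransgenic cortex; 0 members were called in the last under any alternative. The highest counts of the first comparison came without nontransgenic array 6, the 6 members of WT bigenic against nontransgenic without nontransgenic array 5, the 7 of dNLS bigenic against dNLS monogenic without dNLS bigenic array 5, and the lowest counts of dNLS bigenic against WT bigenic without WT bigenic array 1. Members close to the lowest value of the scale (Nup98, Nup43, Tnpo2, Xpo4 and Ranbp17) cannot show a decrease in full.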

Other observations

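Within the dNLS monogenic group, array 2 had the highest difference between 3' and 5' beta-actin probe sets, 3.13, and held 4 of the outlying member values. The median level over the 47 members spanned 10.40 to 10.55 in dNLS bigenic arrays, 10.37 to 10.54 in WT bigenic arrays, 10.27 to 10.53 in dNLS monogenic arrays and 10.33 to 10.75 in nontransgenic arrays. The lowest of these medians was on dNLS monogenic array 2 and the highest on nontransgenic array 6.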
